A study of Homo sapiens with 8 samples.

Results

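The gelsolin and villin family is described here in MDA-MB-231 cells, an established human triple-negative breast cancer line, cultured for 2 days on either a soft or a stiff substrate. All 8 genes of the family (GSN, CAPG, SCIN, FLII, SVIL, VIL1, AVIL and VILL), of 19775 genes on the array, were taken with each probe set that carried a member as its only gene symbol, which gave 27 of 54613 probe sets. One further probe set, shared by LLGL1 and FLII, was not used. The family was chosen by the soft against stiff result itself, since GSN had one of the largest differences of all genes in it. The members' values in this contrast are therefore given as a description: no test supports them, and the threshold of the fit across all probe sets (adjusted p under 0.05) serves only to say where a probe set fell.

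Both groups were grown in the same serum-containing medium, and each consisted of 4 biological replicates, lettered A to D, with 1 Affymetrix array of total RNA each. The labels name no drug and no genetic change in either group; the sources used here do not give the stiffness of the substrates or say how the cultures were separated, so the spread between arrays may be partly technical. By its title the series concerns mechanical cues acting on the mevalonate pathway and the GTPase RhoA. Values are log2 RMA summaries, the authors' normalised probe set levels, in which a difference of 1 is a doubling.

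Proteins of this family are built from repeats of a gelsolin-like fold. Calcium opens gelsolin, which then severs actin filaments and stays on the fast-growing (barbed) end as a cap until phosphoinositides such as PIP2 release it. CAPG caps ends without severing, and the villins add a headpiece that binds the side of a filament, so that villin can also bundle filaments, as it does in the brush border of the gut. In cells, severing and capping set how fast filaments turn over at the leading edge and at adhesions.

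The cells on soft had more GSN, CAPG and SVIL transcript than those on stiff, and FLII, the other member read well above background, hardly differed. GSN was 2.33-fold higher, CAPG 1.46-fold and SVIL 1.24-fold at the probe set with the highest mean level of each gene. Only 1 of 7 GSN probe sets was above background, and the dim ones did not all show the difference. In 23 alternative settings GSN stayed past the threshold in 23, CAPG in 22 and SVIL in 14. VIL1, AVIL, SCIN and VILL were read at or under background at every probe set. In bulk RNA, a change in the level per cell cannot be told apart from a change in the share of cells that express a gene.

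Upstream sequences are shown for the 3 members that were higher on soft together, because a reader may want to see what precedes their start sites. They come from RefSeq's promoter table (GRCh38.p14), which lists 20 starts for 7 of the 8 members (none for VIL1): 6 for GSN, 4 each for CAPG and SVIL, 3 for VILL and 1 each for FLII, AVIL and SCIN. Which starts were in use in these cells was not measured. The 250 bases before each start were searched on both strands. The TATA box was sought as TATAAA, the AP-1 motif as TGANTCA (N being any base), the SP1 motif as GGGCGG and the TEAD motif as GGAATG. The CArG box, which SRF binds, was sought as CC, then 6 bases of A or T, then GG. Matches may overlap, as 2 SP1 matches of GSN do by 1 base. The start with the most matches of GSN and of CAPG is printed, 5' to 3' with every match in capitals. For SVIL the start with the CArG box is printed, although another SVIL start held more matches. All 3 were thus picked by their matches.
GSN chr9:121267912-121268161, plus strand: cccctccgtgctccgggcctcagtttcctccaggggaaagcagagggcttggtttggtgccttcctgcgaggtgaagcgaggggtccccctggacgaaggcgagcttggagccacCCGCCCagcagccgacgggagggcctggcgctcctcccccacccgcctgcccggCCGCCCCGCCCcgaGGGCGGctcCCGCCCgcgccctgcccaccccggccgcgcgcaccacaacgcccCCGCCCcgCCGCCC
CAPG chr2:85414017-85414266, minus strand: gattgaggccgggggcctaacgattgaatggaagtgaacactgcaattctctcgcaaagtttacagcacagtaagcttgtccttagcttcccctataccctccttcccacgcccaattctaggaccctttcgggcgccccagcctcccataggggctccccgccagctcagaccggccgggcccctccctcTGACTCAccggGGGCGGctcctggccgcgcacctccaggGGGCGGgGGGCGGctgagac
SVIL chr10:29634972-29635221, minus strand: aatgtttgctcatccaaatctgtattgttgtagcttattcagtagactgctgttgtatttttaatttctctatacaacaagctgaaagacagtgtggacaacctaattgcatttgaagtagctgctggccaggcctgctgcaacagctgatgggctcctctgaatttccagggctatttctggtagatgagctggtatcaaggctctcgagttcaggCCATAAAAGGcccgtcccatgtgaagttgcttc
The GSN sequence held 7 SP1 matches, the only kind of match in it. The CAPG sequence held 1 AP-1 match, 59 to 53 bases before the start, and 3 SP1 matches. The SVIL sequence held 1 CArG box, 33 to 24 bases before the start. Another SVIL start, not printed, had a match to the AP-1 pattern 96 to 90 bases before it, with the letters TGAATCA. Of all 35116 starts in the table, 42.6% held an SP1 match, 6.57% an AP-1 match, 11.9% a TEAD match, 10.7% a TATA box and 1.16% a CArG box. Of the 20 member starts, 9 held an SP1 match, and starts of FLII and VILL were among them. An AP-1 match lay before 3 member starts, and VILL had 1 of these. The matches were thus not confined to the members higher on soft. None of the 14 starts of GSN, CAPG and SVIL held a TEAD match, and the family's single TEAD match lay before FLII. These are matches of letters and describe no binding.

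Arrays resembled each other closely (correlations of 0.9932 to 0.9982), and none were identical. The first principal component (40.4% of the variance) separated soft from stiff, and along the second (16.4%) the pair stiff A and B lay opposite the pair stiff C and D, so member differences are also given against each of these stiff pairs. The line's mesenchymal markers were strongly read, with mean levels of 13.6 to 13.7 for the 6 genes over the 8 arrays; S100A4 was higher on soft and AXL lower, past the threshold. ESR1, PGR and CDH1 were not above background in either group, while EPCAM was, at 9.94 on stiff and 9.82 on soft. Background was set at 8.35, the 95th percentile of 17 genes taken as silent, but this rested on MBP, read at 11.4; without MBP the level was 6.80, a choice made after its value was seen and used below unless stated. Mean levels of the marker lists of other cell types lay between 4.87 and 6.0 on every array, for 7 fibroblast, 5 smooth muscle, 6 macrophage and leukocyte, 5 endothelial and 7 intestinal epithelium genes. Of these 30, only COL1A1, SMTN and PECAM1 exceeded 6.80, and PECAM1 alone was past the threshold, in 1 probe set of 5 (7.52 on stiff and 8.01 on soft); CDH5 and VWF, which define endothelium, were at 4.21 to 5.98. The part of other cells in the family's values was not tested.

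Of the 27 member probe sets, 7 were past the threshold, all higher on soft, where 4.64% of all probe sets were higher and 4.63% lower. In 7 probe sets every soft array lay above every stiff array, which was so for 8.06% of all probe sets, and in 0 did every soft array lie below. Since the contrast chose the family, nothing is read from these shares. By gene, at the highest probe set, 3 of 8 members were higher (GSN, CAPG and SVIL) and 0 lower, beside 4.39% and 5.93% of all genes. The median difference (soft minus stiff) over the 8 genes was 0.04 and over all genes 0.01. Only 7 member probe sets lay above the 6.80 level, 4 of them past the threshold; the other 3 past it were dim.

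**Figure D1:**
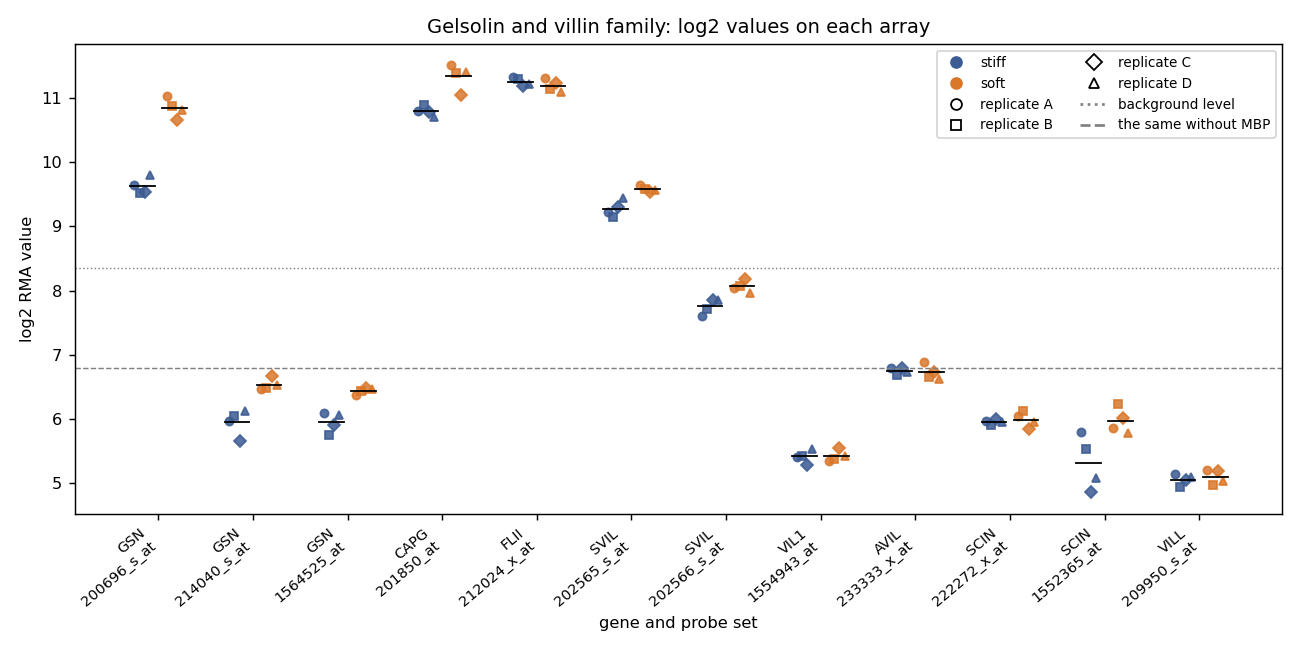
Log2 RMA value on each array (points; blue stiff, orange soft; the symbol gives the replicate letter) with the group mean (bar), for each gene's highest probe set and every member probe set past the threshold; grey lines mark the background levels of 8.35 and 6.80. The brightest probe sets of GSN, CAPG and SVIL stand above both lines with soft over stiff, and FLII overlaps. The second SVIL probe set lies between the lines, and the group means of the other GSN probe sets and of SCIN, VIL1, AVIL and VILL lie under both.

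GSN encodes gelsolin, the calcium-activated severing and capping protein that names the family. Its brightest probe set, 200696_s_at, read 9.65, 9.52, 9.53 and 9.80 on stiff A to D, and 11.03, 10.87, 10.66 and 10.82 on soft A to D. The groups were far apart: the lowest soft array exceeded the highest stiff array by 0.86, more than the range within either group. The means were 9.62 ± 0.13 on stiff and 10.84 ± 0.15 on soft (SD, n = 4), a log2 difference of 1.22 (moderated SE 0.0908), and 6 genes of all measured had a larger one.

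The other 6 GSN probe sets were at or under background, and they did not all show the difference. Probe set 214040_s_at read 5.97, 6.05, 5.66 and 6.13 on stiff and 6.46, 6.49, 6.67 and 6.53 on soft, a difference of 0.58 (SE 0.0984). Probe set 1564525_at read 6.10, 5.75, 5.90 and 6.07 on stiff and 6.38, 6.44, 6.49 and 6.46 on soft, a difference of 0.49 (SE 0.0817). In both of these every soft array lay above every stiff array, as at the bright probe set, though by a smaller amount. The remaining 4, with group means of 3.09 to 5.46, overlapped between the groups and differed by -0.03 to 0.21. The mean of all 7 GSN probe sets gave 0.38, so the GSN difference depends on the probe set. The value for the gene as a whole, in most settings that of its brightest probe set, was positive and past the threshold in all 23 alternative settings. Many of these settings could not change its sign.

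CAPG encodes the macrophage capping protein, which blocks barbed ends and does not sever. Its single probe set read 10.80, 10.89, 10.78 and 10.71 on stiff and 11.51, 11.39, 11.04 and 11.41 on soft. Soft C was the lowest of the soft arrays and was still above stiff B, the highest of the stiff ones, by 0.15. The difference was 0.54 (SE 0.0961; 10.79 ± 0.07 against 11.34 ± 0.21, SD, n = 4), and 0.64 without soft C. Against stiff A and B alone it was 0.49 and no longer past the threshold.

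SCIN encodes scinderin (adseverin), the member nearest to gelsolin, a calcium-dependent severing protein known from secretory cells. None of its 4 probe sets was above background, and they disagreed. Probe set 1552365_at read 5.79, 5.53, 4.86 and 5.08 on stiff and 5.86, 6.24, 6.02 and 5.78 on soft. Its groups overlapped, with stiff A above soft D, and the stiff arrays were spread widely (5.32 ± 0.42, against 5.98 ± 0.20 on soft, SD, n = 4). The difference of 0.66 (SE 0.180) was 0.32 against stiff A and B and 1.01 against stiff C and D, and it was no longer past the threshold against stiff A and B or when any single array other than stiff A was left out (0.51 to 0.73). The other SCIN probe sets differed by 0.03 to 0.35, not past the threshold.

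FLII encodes flightless-1, which joins gelsolin-like repeats to leucine-rich repeats and also acts as a transcriptional coactivator. All 3 of its probe sets were bright, and in none did the groups separate. The brightest, 212024_x_at, read 11.33, 11.29, 11.19 and 11.22 on stiff and 11.31, 11.14, 11.23 and 11.09 on soft. Its difference was -0.06 (SE 0.0682), and those of the other probe sets were -0.02 (SE 0.0640) and -0.01 (SE 0.0648).

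**Figure D2:**
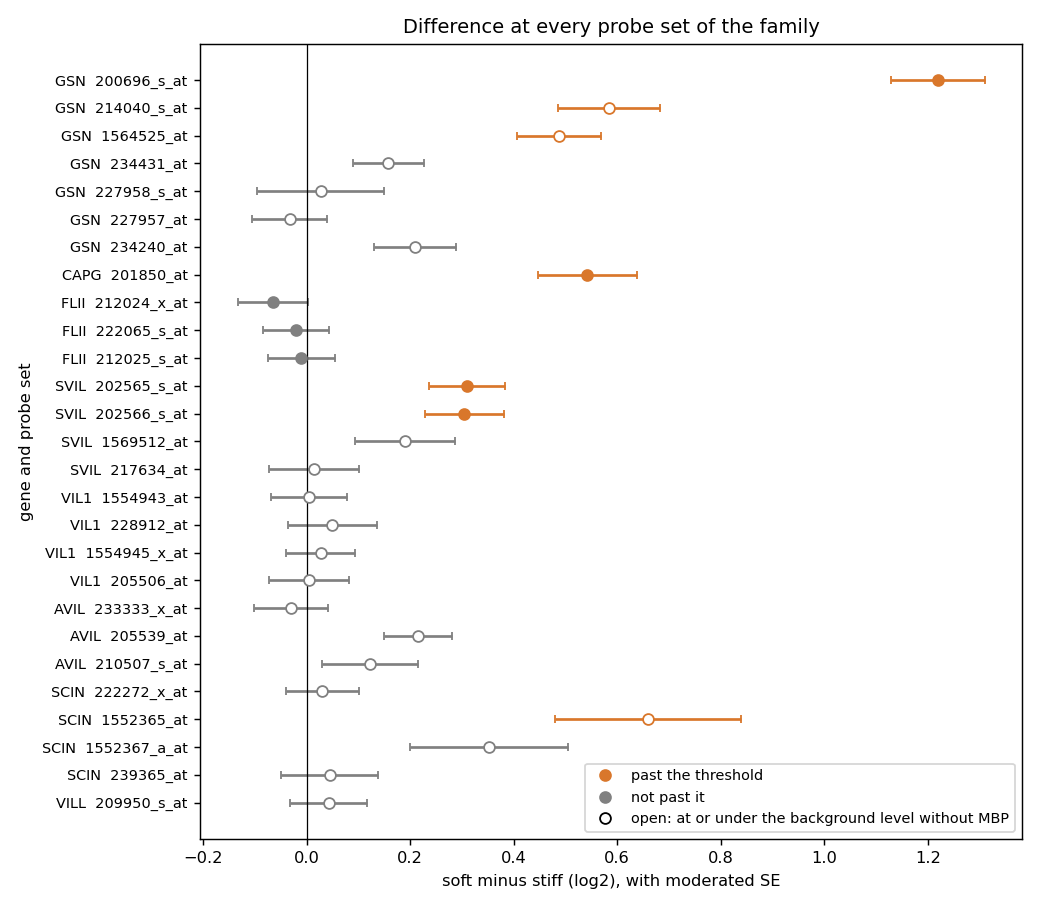
Soft minus stiff difference (log2, with moderated SE) at all 27 probe sets of the family, in orange where past the threshold and open where the level was at or under 6.80. GSN holds the largest difference (1.22) and also probe sets near 0; the 3 FLII probe sets cluster at 0.

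SVIL encodes supervillin, the largest member, which ties actin and myosin II to the plasma membrane. Its brightest probe set, 202565_s_at, read 9.22, 9.14, 9.30 and 9.44 on stiff and 9.64, 9.59, 9.54 and 9.57 on soft. A second, 202566_s_at, read 7.61, 7.72, 7.85 and 7.86 on stiff and 8.04, 8.07, 8.18 and 7.97 on soft. In both, every soft array was above every stiff array by a narrow margin (0.10 and 0.11), and stiff A and B were lower than stiff C and D. The differences were 0.31 (SE 0.0726) and 0.30 (SE 0.0758). They were 0.40 and 0.40 when only stiff A and B were used, and 0.22 and 0.21, not past the threshold, when only stiff C and D were. SVIL's brightest probe set also missed it without stiff A (0.29), stiff B (0.26), soft A (0.29), soft B (0.31) or soft D (0.32), at nearly the same size, and the second probe set without stiff A, stiff B, soft A, soft B or soft C (0.26 to 0.31). The other 2 SVIL probe sets were under background and differed by 0.19 (SE 0.0964) and 0.02 (SE 0.0868), with overlapping groups.

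The villins proper were not above background in these cells. VIL1, villin itself, had group means of 4.26 to 5.42 at its 4 probe sets and differences of 0.01 to 0.05. VILL, a villin-like gene, read 5.14, 4.94, 5.05 and 5.10 on stiff and 5.20, 4.97, 5.19 and 5.04 on soft at its single probe set. AVIL, advillin, known from sensory neurons, had its highest probe set just under background (6.75 on stiff and 6.72 on soft). At another, 205539_at, every soft array lay above every stiff array (5.15 to 5.32 on stiff, 5.34 to 5.51 on soft), with a difference of 0.21 (SE 0.0650) that was not past the threshold. At such levels a difference, or none, says little about the transcript.

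**Figure D3:**
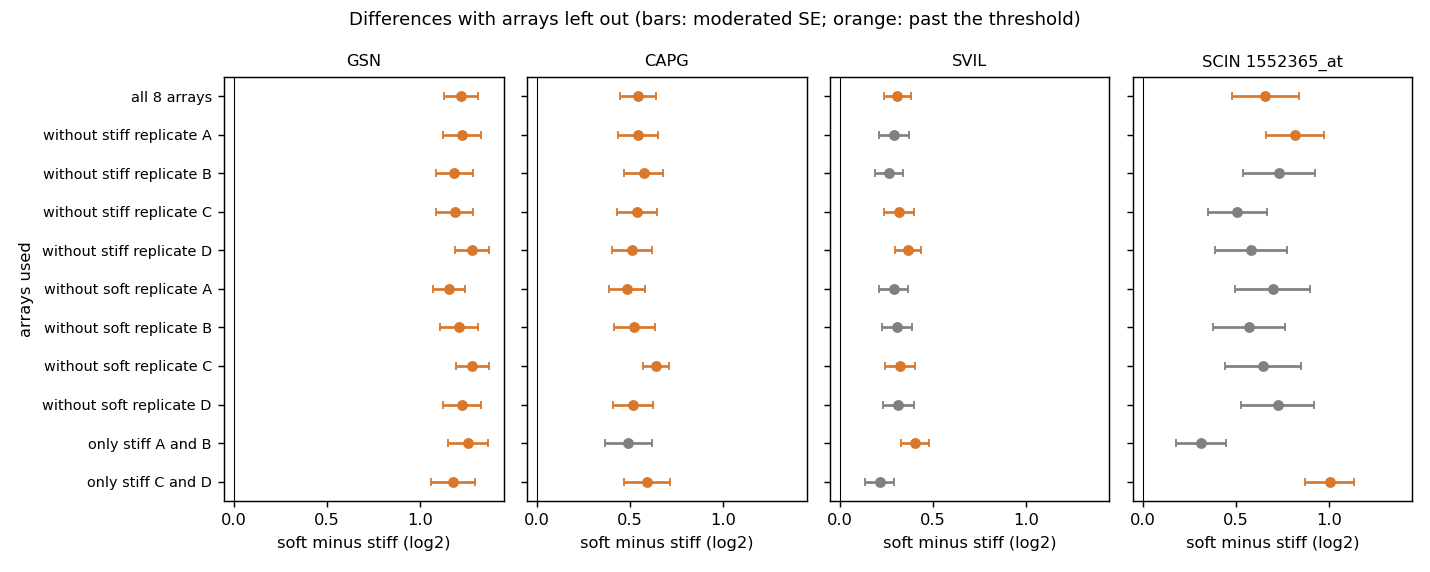
Soft minus stiff difference (log2, with moderated SE) with all 8 arrays, with each array left out, and with stiff A and B or stiff C and D as the only stiff arrays; orange marks values past the threshold. GSN stays between 1.16 and 1.28, CAPG between 0.48 and 0.64, SVIL between 0.22 and 0.40, and the dim SCIN probe set ranges from 0.32 to 1.01.

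The genes whose pattern over the 8 arrays was most like that of GSN's brightest probe set, among 7205 genes above 8.35, were LTBP1 (Pearson r = 0.998), which stores latent TGF-beta in the matrix, the aldo-keto reductases AKR1C1 (0.998) and AKR1C2 (0.997), GPR153 (0.995), an orphan receptor, and ALDH3A2 (0.994), a fatty aldehyde dehydrogenase. Such an r mostly reflects a shared difference between the groups. The deviations from the group means, over the same 8 arrays, correlated at 0.952, 0.953, 0.924, 0.932 and 0.835 in the same order. LTBP1, with the highest r, was at 9.65 ± 0.14 on stiff and 10.64 ± 0.09 on soft (SD, n = 4), 2.00-fold higher on soft. AKR1C1 and AKR1C2 differed by 1.36 and 1.27. Both are read by _x_at probe sets, and whether these share sequence was not checked. These genes were picked as the most alike, on arrays they share with GSN, so the values describe and test nothing.

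Around the family stand the other genes that set actin filament turnover, listed in 8 groups. Of 108 measured, 6 were higher on soft, 5 lower and 97 not past the threshold (5.56% and 4.63%, beside 4.39% and 5.93% of all genes), with a median difference of 0.06. Unlike the members, these lists were not picked for how their genes moved, but they were written with earlier results of these data known. The count leans on the settings. When probe sets at or under 8.35 were left out it was 17 higher and 4 lower. With only those above 6.80 it was 20 and 5, and against stiff A and B alone 3 and 4. The level filters left fewer list genes and fewer probe sets to test. Over all probe sets the same settings gave 2046 higher and 2734 lower, 3001 and 3659, and 1616 and 1043. Those are counts of probe sets, whereas the list counts are of genes. The share of all genes was not counted under these settings, so no lean to soft is read from the list counts. Quantile normalisation or cyclic loess gave 8 higher and 4 lower. With single arrays left out there were 2 (without soft D) to 7 higher (without soft C) and 1 (without stiff A or stiff B) to 3 lower. Of the 11 genes past the threshold, which are all named below, WASF2 and SYNJ2 kept their call in each of the 23 alternative settings and DBN1 with each array left out; the other 8 lost it without at least 1 array. DSTN lost it without stiff A, stiff B, soft B or soft D, ARPC5L without stiff A or stiff B, and ABLIM3 without stiff B, soft A or soft D. ACTB kept it only without stiff A, soft B or soft C, and CYFIP2 kept it only without stiff C or soft A. ANLN kept it only without soft B or soft C, SSH1 only without soft C, while LIMK2 lost it whichever array was left out and under both quantile normalisation and cyclic loess. Adjusted p-values below are from limma over all probe sets.

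Among 21 severing and disassembly partners 2 rose and 1 fell (median 0.07). Destrin (DSTN), an actin-depolymerising relative of cofilin, rose by 0.25 (SE 0.0590, adjusted p = 0.0229), with 13.65 to 13.77 on stiff and 13.94 to 13.99 on soft, and all 3 of its probe sets passed. SSH1, a phosphatase that switches cofilin on, rose at 2 of 4 probe sets, by 0.22 (adjusted p = 0.0319) at its brightest and by 0.51 at another. Its remaining probe sets, under background, differed by -0.06 and 0.07. LIMK2, a kinase that switches cofilin off, fell by 0.24 (adjusted p = 0.0454) at 1 of 3 probe sets. Cofilin itself (CFL1) differed by 0.07 (SE 0.0570, adjusted p = 0.492).

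None of the 21 end-capping genes passed the threshold (median 0.04), although CAPG, the family's dedicated capper, was higher on soft. The capping protein subunits CAPZA1 and CAPZB differed by -0.12 (adjusted p = 0.266, every soft array below every stiff array) and 0.16 (adjusted p = 0.142). None of the 6 monomer-binding genes passed it either (median 0.07), profilin 1 (PFN1) differing by 0.07 (adjusted p = 0.55). At an unadjusted p under 0.05 (limma) there were 3 genes in each of these lists and 1 to 7 in the other lists. The share of all genes at that level was not counted, so nothing is read from these numbers.

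Of 17 bundling and crosslinking genes none rose past the threshold and 2 fell (median -0.02), each at 1 of 2 probe sets. Drebrin (DBN1) fell by 0.34 (SE 0.0657, adjusted p = 0.0105). Anillin (ANLN), which organises the contractile ring of dividing cells, fell by 0.28 (adjusted p = 0.0365). The largest differences in the list were upward and just missed the threshold. They were MARCKSL1 by 0.50 (adjusted p = 0.0564, groups overlapping) and FSCN1 by 0.365 (adjusted p = 0.0588). Against stiff A and B alone these were 0.205 and 0.165. Under the replicate block, quantile normalisation or cyclic loess 1 gene of the list rose past it. Of 5 actin isoforms 1 rose, beta-actin (ACTB), by 0.26 (SE 0.0615, adjusted p = 0.025), at all 3 of its probe sets.

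Of 17 genes of the Arp2/3 complex, which nucleates branched filaments, and of its activators 1 rose and 2 fell (median 0.12). With probe sets at or under 8.35 left out, 6 rose and 1 fell. That filter also gave 2 higher among monomer-binding, 2 among bundling, 2 among PIP2 and 1 among end-capping genes. The remaining lists kept their number higher. The share of all genes under the filter was not counted, so nothing is read from these counts. WASF2 (WAVE2), an Arp2/3 activator, rose most of all 108 genes. It read 9.67, 10.02, 9.95 and 10.11 on stiff and 10.99, 10.79, 10.87 and 10.91 on soft, 1.94-fold higher (difference 0.95, SE 0.0928, adjusted p = 0.000336). At a second probe set the difference was 0.36 (adjusted p = 0.0304) and at the remaining one 0.16, not past the threshold (adjusted p = 0.186). The complex subunit ARPC5L fell by 0.26 (adjusted p = 0.0189), at 3 of 4 probe sets, and CYFIP2 by 0.28 (adjusted p = 0.0336) at a level under background. The other complex subunits measured differed by -0.02 (ARPC4) to 0.19 (ACTR3), not past the threshold. In ACTR3, ARPC1B, ARPC2 and ARPC5 every soft array lay above every stiff array, as in 8.06% of all probe sets. In ARPC1A, ARPC3 and ARPC4 this was not so. These subunits were named after their values were seen, so nothing is read from this.

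Of 18 genes of PIP2 metabolism, the lipid that takes gelsolin off filament ends, 1 rose (median 0.02). That was SYNJ2, synaptojanin 2, a phosphatase that breaks PIP2 down, by 0.43 (SE 0.0584, adjusted p = 0.00175), from 11.48 ± 0.04 to 11.91 ± 0.05 (SD, n = 4), at 3 of 7 probe sets. Of 3 further genes with a villin headpiece, ABLIM3 rose by 0.32 (SE 0.0714, adjusted p = 0.0199), while ABLIM1 and DMTN differed by 0.03 (adjusted p = 0.851) and -0.05 (adjusted p = 0.708).

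**Figure D4:**
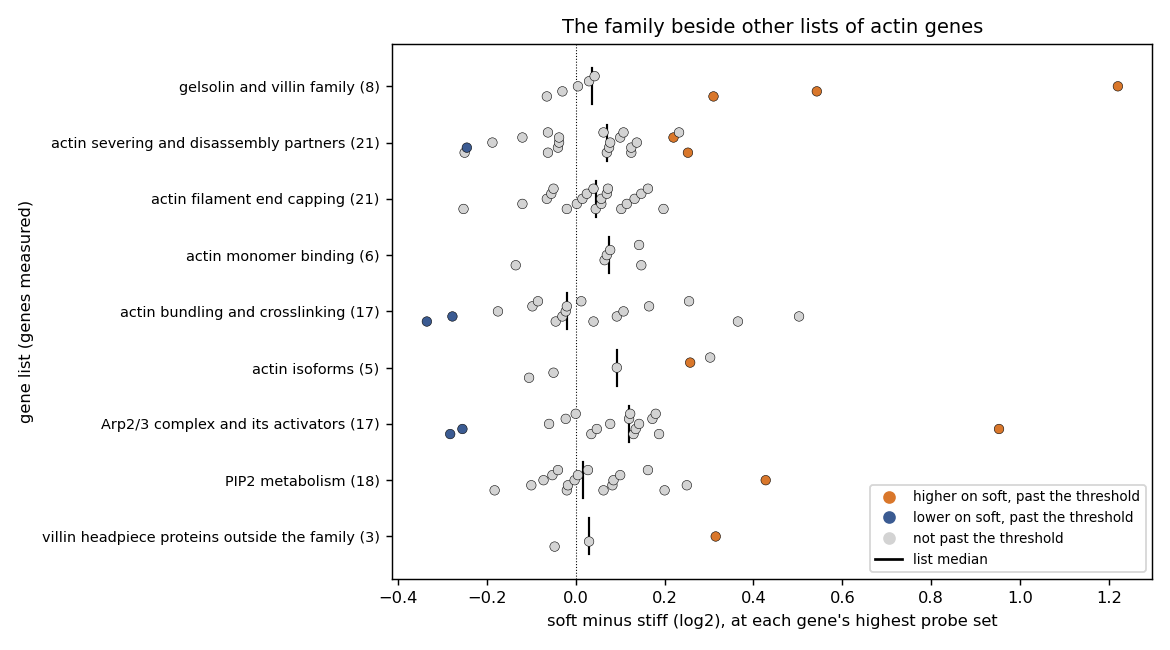
Soft minus stiff difference (log2) of each gene's highest probe set, by list, with the number of genes measured and the list median (bar); orange points were higher and blue points lower on soft, past the threshold. List medians lie between -0.02 and 0.12, and GSN (1.22) and WASF2 (0.95) stand apart from the other genes shown.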

How the data were processed

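Total RNA of 8 cultures was hybridised to Affymetrix arrays, 1 per culture. The deposited values are log2 RMA levels by the authors (per the submitters' processing notes, which name RMA; its version is not given in the sources used here, and the log2 scale was read off the range of values). RMA equalises the distributions of the arrays and compresses dim differences. Of 54675 probe sets, 62 controls were left out. Gene symbols came from the platform annotation, updated by gene identifier: 41091 probe sets had 1, 1801 several (not used) and 11721 none. A gene took its probe set with the highest mean.

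Soft and stiff were compared with limma 3.58.1 in R 4.3.3 (lmFit, eBayes) over all 54613 probe sets, two-sided, with Benjamini-Hochberg adjustment; the fit was tested on simulated data. Precision is limited by the number of arrays, and p-values measure only the spread between these cultures. The members and lists were chosen with earlier results of these data known. Background was the 95th percentile of genes taken as silent (17 of 21 measured). Alternatives covered scaling, filters, variance models, thresholds, probe set choice, arrays left out and the replicate block; a background level without MBP was added after seeing the data. Named were all members, up to 2 genes per direction and list of those past the threshold (largest difference first), and the 5 genes most like GSN. A few list genes were chosen after their values were seen (CFL1, CAPZA1, CAPZB, PFN1, FSCN1, MARCKSL1, ACTR3, ARPC1A, ARPC1B, ARPC2, ARPC3, ARPC4, ARPC5, ABLIM1, DMTN). Same-lettered arrays did not deviate together (correlations of -0.12 to 0.12), so letters were not used as pairs. Figures were drawn with matplotlib 3.10.9.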

Additional observations from a re-analysis of the deposited data

Results flagged for a closer look

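Among 76 groups of 4 arrays examined (each member probe set and each named list gene, on soft and on stiff), 1 held an array far from the rest. SYNJ2 read 11.83 on soft A and 11.93 to 11.95 on the other soft arrays; the gap was 0.833 of the range, past the 95% critical value of Dixon's test. Chance gives this in about 1 of 20 groups. No member probe set was so marked.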

How the results depend on the processing

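The direction of GSN, CAPG and SVIL was the same in all 23 alternative settings, but many of these could not change it. The replicate block, the level filters, the trended variance and the other thresholds leave the differences as they are (1.22, 0.54 and 0.31). At these probe sets every soft array lay above every stiff array, so leaving arrays out could not reverse the sign. GSN kept its side of the threshold in 23, CAPG in 22 (lost against stiff A and B, 0.49) and SVIL in 14. GSN was 0.38 as the mean of all its probe sets and 0.49 without the _s_at and _x_at probe sets. SVIL was lost at an adjusted p under 0.01 (0.31), against stiff C and D (0.22), as the mean of all probe sets (0.20) and without _s_at and _x_at probe sets (0.19), and ranged from 0.26 to 0.36 with single arrays left out, lost without stiff A, stiff B, soft A, soft B or soft D. Dim members changed sign, which their level allows: AVIL was 0.10 as the mean, 0.21 without _s_at and _x_at probe sets and -0.085 to 0.0017 with arrays left out; VIL1 was -0.020 under cyclic loess, -0.015 under median centring and under quantile normalisation, and -0.038 to 0.046 with arrays left out; SCIN was 0.66 and past the threshold without _s_at and _x_at probe sets and -0.014 to 0.079 with arrays left out. The cause was not tested. The other 15 member probe sets, none past the threshold, gave 288 values under the alternatives, 33 of opposite sign and 3 past the threshold.

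Member probe sets higher numbered 4 at an adjusted p under 0.01, 3 above the 8.35 level, 4 above the 6.80 level, 3 without _s_at and _x_at probe sets and 4 to 6 with single arrays left out. Over all probe sets the 2535 higher and 2526 lower became 1025 and 638 at an adjusted p under 0.01, and 3696 and 3903 under 0.1. They were 2046 and 2734 above 8.35, 3001 and 3659 above 6.80, and 3129 and 3571 above the median level. The trended and robust variance gave 3165 and 3582. Against stiff A and B there were 1616 and 1043, and against stiff C and D 1274 and 914. Without _s_at and _x_at probe sets there were 1455 and 1445. With single arrays left out there were 1619 to 2429 higher and 1232 to 2651 lower. Of the actin list genes, higher ones numbered 2 at an adjusted p under 0.01, 15 under 0.1, 15 with the trended and robust variance, 12 as the mean of probe sets, 17 above 8.35, 20 above 6.80, 15 above the median level, 3 against stiff A and B, and 2 to 7 with arrays left out; lower ones numbered 0 under 0.01, 0 against stiff C and D, 2 without _s_at and _x_at probe sets, and 1 to 3 with arrays left out. The share of all genes was not counted in these settings, so nothing is read from the list counts. Letters A to D did not pair the arrays. With them as a replicate block 7 member probe sets were higher as before, and the actin list genes were 4 higher and 1 lower. Arrays give no counts, so precision is limited by 4 arrays a group and, for the 20 member probe sets at or under 6.80, by signal.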
